A study of Mus musculus with 12 samples.

Results

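The brain of aged mice after chronic heat stress was compared with the brain of control mice, from 6 of the 12 libraries of the series. The 6 libraries were chosen by their labels, tissue brain with treatment heat stress or control, and 14806 of the 25239 listed genes had enough counts to be tested. All mice were C57BL6/J of wild-type genotype and 24 months old. The 3 mice of the heat stress group were kept at 40 °C and 60% relative humidity for 3 hours a day over 15 days, and the 3 mice of the control group carry the label control with no exposure named. Each library came from messenger RNA of a small weighed piece of frozen brain, and the labels and methods do not say from which region the piece was cut. The question was which pathways and cell classes differed between the groups in brain.

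Core body temperature is sensed and defended by the hypothalamus. Inside cells, a rise in temperature unfolds proteins, and heat shock factors then switch on chaperones of the cytosol, while the endoplasmic reticulum, where secreted and membrane proteins fold, has a chaperone programme of its own called the unfolded protein response. The small RNA-binding proteins Rbm3 and Cirbp are known for the opposite habit, since their messages accumulate when cells are cooled. The brain is also shielded by a vascular barrier of endothelial cells with pericytes and a basement membrane, and by the choroid plexus, an epithelium that secretes cerebrospinal fluid. Because a piece of brain was measured whole, fewer cells of a type and less RNA per cell cannot be told apart in any result below.

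The libraries held between 10552686 and 14597197 counts, and each had at least 1 count for 17904 to 18285 genes. A count of 3, taken as the floor, was worth between 0.206 and 0.284 CPM, and this floor covers counting error only. CPM stands for counts relative to the library size after TMM normalization, the unit of every level below. Messages that mark neurons in general summed to between 10264 and 13380.4 CPM, and messages that mark hepatocytes to between 2.59 and 22.5 CPM, so the libraries carried the transcripts of the labelled tissue. Each library stands for 1 mouse, and p-values measure the spread between 3 and 3 mice.

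Lists of ribosomal proteins, respiratory subunits and striatal neurons held many genes that were higher in heat stress before adjustment, and lists of brain endothelium, choroid plexus, endoplasmic reticulum chaperones and immediate early genes held more lower than higher ones, but no single gene passed adjustment over all genes in the main test. No gene differed between the groups at an adjusted p-value under 0.05 in edgeR's quasi-likelihood test, and 769 genes shared the smallest adjusted p, 0.170. Before adjustment, 1481 genes (10.0% of those tested) were higher and 1488 (10.0%) lower in heat stress at the threshold of 0.05. With a log2 fold change past 1 as well, 86 (0.581%) were higher and 75 (0.507%) lower. In 1910 genes (12.9%) all 3 heat stress libraries lay above all 3 control libraries, and in 1774 (12%) all 3 lay below. DESeq2 on the same counts gave 282 genes higher (2.43% of 11597 with an adjusted p) and 258 lower (2.22%) at an adjusted p under 0.05. A gene is called higher or lower below when its unadjusted edgeR p was under 0.05, and these percentages are the background against which each count of a list is to be read. Every gene so called had an edgeR adjusted p between 0.170 and 0.249, and errors of log2 fold changes are standard errors. An adjusted p credited to DESeq2 is from its own fit and is not printed for every named gene. Of the 137 named genes that were tested, 74 had a DESeq2 adjusted p under 0.05. The unadjusted counts leaned on single mice, since they were 769 higher and 886 lower without control replicate 1, 962 higher without control replicate 3, and 729 higher and 936 lower without heat stress replicate 2. The median log2 fold change of all tested genes was -0.0030.

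**Figure D1:**
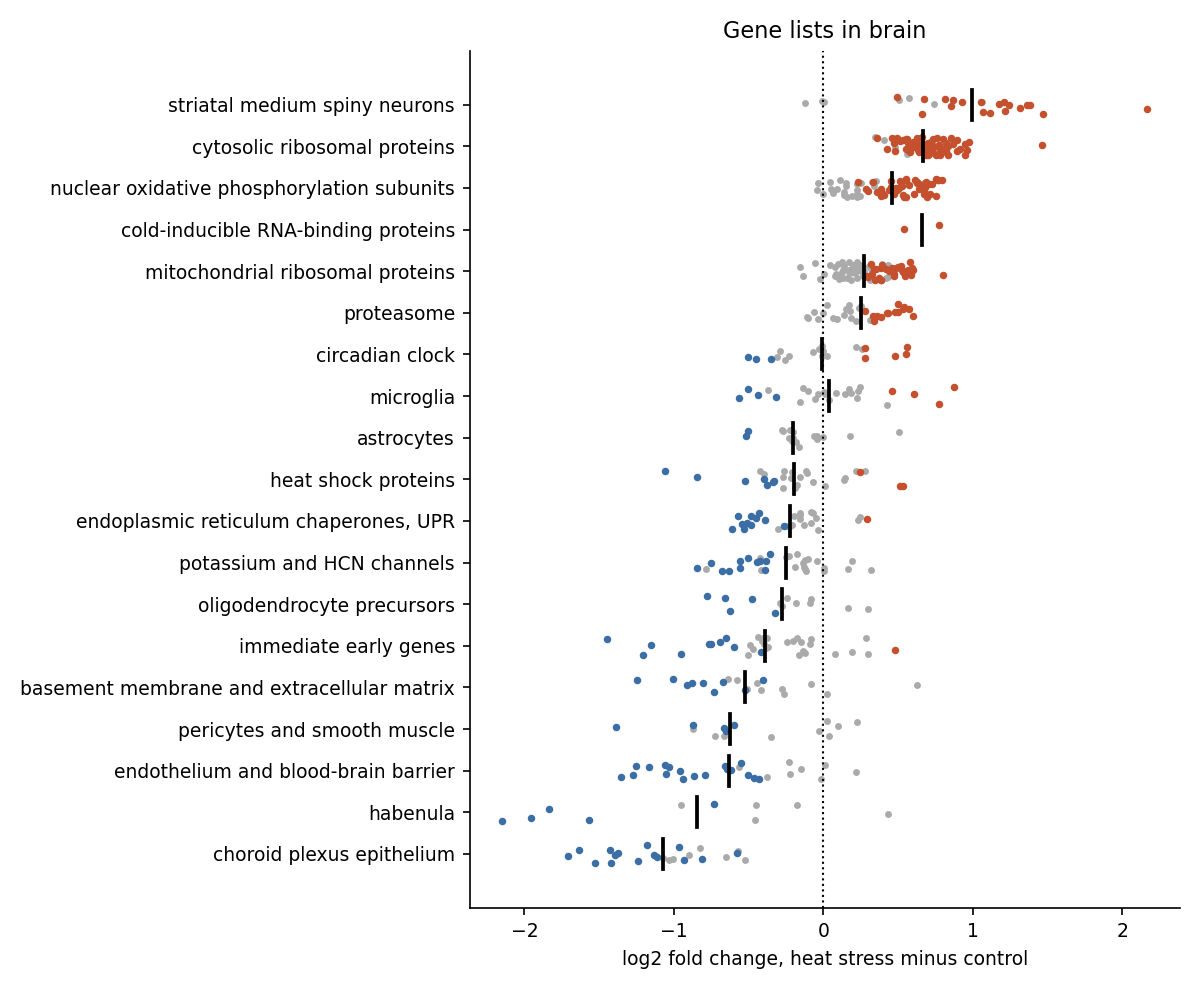
Log2 fold change of every tested member of 19 gene lists in brain, heat stress minus control. Each point is a gene, red when higher and blue when lower at an unadjusted p under 0.05 and grey otherwise, black bars are list medians, the dotted line is the median of all tested genes, and UPR stands for unfolded protein response. Striatal and ribosomal lists lie to the right and choroid plexus, habenula and endothelial lists to the left.

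The cold-inducible RNA-binding proteins held the gene with the smallest p of the table. Rbm3, on chrX:8138975-8145880 of mm10, had 94.1, 103 and 106 CPM in the control and 167, 186 and 166 CPM in the heat stress libraries. Its groups did not overlap and its log2 fold change was 0.78 ± 0.11 (DESeq2 adjusted p = 5.42e-06). Cirbp, on chr10:80165985-80172786, followed with 81.7, 91.1 and 83.9 CPM in the control and 124, 122 and 127 CPM in the heat stress libraries. This was also a separation of all 6 mice (log2 fold change 0.54 ± 0.10, DESeq2 adjusted p = 0.00558). Leaving out each mouse in turn kept Rbm3 between 0.72 and 0.81 and Cirbp between 0.51 and 0.58, and with every library adjusted for the length and GC content of transcripts they stood at 0.55 and 0.44.

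The heat shock proteins of the cytosol and mitochondria, which refold or hold unfolded clients, held called members in both directions. Of 28 tested members, 3 were higher and 7 lower, and the median log2 fold change was -0.20. Hspa1a, an inducible form of the chaperone HSP70, had 8.23, 5.50 and 4.61 CPM in the control and 3.42, 3.58 and 3.21 CPM in the heat stress libraries (log2 fold change -0.85 ± 0.26). Its near-identical neighbour Hspa1b had 9.53, 6.28 and 3.48 against 1.85, 3.76 and 3.68 CPM (log2 fold change -1.06 ± 0.40, adjusted p = 0.202), and reads may have been split between the copies in counting. The other lower members were Dnajb5, Fkbp4, Hsph1, Cryab and Bag3, with log2 fold changes between -0.53 and -0.33. The higher members were Hspe1, the small partner of the mitochondrial chaperonin (0.54), Cacybp (0.51) and Dnajb4 (0.24). No member had a DESeq2 adjusted p under 0.05. With the length and GC correction 0 were higher and 10 lower. The number higher was 1 without heat stress replicate 1 and 0 without heat stress replicate 2, and the number lower was 4 without control replicate 1 and 4 without heat stress replicate 3.

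Several chaperones of the endoplasmic reticulum were lower. Of the 28 tested members of the list of endoplasmic reticulum chaperones and the unfolded protein response, 11 were lower and 1 was higher, and 13 lay lower in every heat stress mouse, with a median of -0.22. Hspa5, the master chaperone of this compartment and also known as BiP, on chr2:34771970-34777547, had 269.7, 311 and 263 CPM in the control and 205, 186 and 187 CPM in the heat stress libraries. All 3 heat stress mice lay below all 3 control mice (log2 fold change -0.55 ± 0.12, DESeq2 adjusted p = 0.00639). Calr, a calcium-binding lectin chaperone, had 415, 349 and 329.7 CPM in the control and 248, 233 and 257 CPM in the heat stress libraries (log2 fold change -0.57 ± 0.13, DESeq2 adjusted p = 0.00901). Pdia4, a disulfide isomerase, had 41.96, 45.7 and 45.9 CPM in the control and 32.5, 30.1 and 31.2 CPM in the heat stress libraries (log2 fold change -0.51 ± 0.10, DESeq2 adjusted p = 0.0198). The groups of Calr and Pdia4 did not overlap either. Hyou1, an exchange factor for Hspa5, had 112, 87.1 and 92.4 CPM in the control and 65.8, 55.7 and 69.3 CPM in the heat stress libraries (log2 fold change -0.61 ± 0.13, DESeq2 adjusted p = 0.0162). Sel1l and Syvn1, which together form the core of a ligase that removes misfolded proteins, were lower, with log2 fold changes of -0.43 and -0.53.

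Other members of the list stood apart from this group. Dnajb9, a cochaperone induced by the same response, was the member that was higher (42.4, 51.7 and 46.5 against 60.7, 61.5 and 49.7 CPM, log2 fold change 0.29 ± 0.13, adjusted p = 0.245), with groups that overlapped. Hsp90b1, the endoplasmic HSP90, had 413, 496 and 446 against 447, 442 and 387 CPM (log2 fold change -0.086 ± 0.13, adjusted p = 0.737), and Canx, a membrane-bound lectin chaperone, had 415, 450.5 and 429 against 439, 405 and 405 CPM (log2 fold change -0.052 ± 0.12, adjusted p = 0.827). Neither separated the groups. After the length and GC correction the list had 14 members lower, 0 higher and a median of -0.26, and 5 of 26 members with a DESeq2 adjusted p were lower at 0.05. Without heat stress replicate 2 the number lower was 7.

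The chaperone genes of the endoplasmic reticulum are known to share a promoter element, the endoplasmic reticulum stress element, which reads CCAAT and CCACG with 9 bases of any kind (N) between them. It was searched on both strands in the promoters of RefSeq on GRCm38.p6, each 250 bases before to 50 bases after a start site. Of 27025 genes with a promoter in that table, 37 (0.137%) held the element, and of 25 list members with a promoter 9 did, which were Calr, Canx, Creld2, Derl3, Dnajc3, Hsp90b1, Hspa5, Pdia6 and Syvn1. Among the 8 of these that were tested, 4 were lower, and among the 15 tested members without it in this window 5 were lower. These promoters are shown because they carry the same element beside different values. They are those of Hspa5 (chr2:34771840-34772139, plus strand), Pdia6 (chr12:17266339-17266638, plus strand), Syvn1 (chr19:6046326-6046625, plus strand) and Hsp90b1 (chr10:86705395-86705694, minus strand), each 5′ to 3′ with the element in capitals:
Hspa5: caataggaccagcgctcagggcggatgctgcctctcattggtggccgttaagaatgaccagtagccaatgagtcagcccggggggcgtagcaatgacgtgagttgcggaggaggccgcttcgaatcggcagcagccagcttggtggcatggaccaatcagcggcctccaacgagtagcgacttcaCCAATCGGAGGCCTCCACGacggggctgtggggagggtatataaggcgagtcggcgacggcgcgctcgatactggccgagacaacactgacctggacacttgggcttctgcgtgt
Pdia6: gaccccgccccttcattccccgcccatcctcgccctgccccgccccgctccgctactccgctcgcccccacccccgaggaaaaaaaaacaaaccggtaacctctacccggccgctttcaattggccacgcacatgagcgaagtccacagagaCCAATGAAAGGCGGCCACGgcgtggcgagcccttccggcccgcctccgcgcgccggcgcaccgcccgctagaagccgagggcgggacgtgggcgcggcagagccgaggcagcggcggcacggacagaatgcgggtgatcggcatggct
Syvn1: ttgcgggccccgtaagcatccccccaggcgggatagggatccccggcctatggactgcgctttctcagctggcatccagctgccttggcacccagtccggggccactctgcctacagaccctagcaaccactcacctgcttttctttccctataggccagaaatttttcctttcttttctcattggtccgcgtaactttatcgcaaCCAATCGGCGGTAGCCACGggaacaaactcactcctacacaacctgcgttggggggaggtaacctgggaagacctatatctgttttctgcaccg
Hsp90b1: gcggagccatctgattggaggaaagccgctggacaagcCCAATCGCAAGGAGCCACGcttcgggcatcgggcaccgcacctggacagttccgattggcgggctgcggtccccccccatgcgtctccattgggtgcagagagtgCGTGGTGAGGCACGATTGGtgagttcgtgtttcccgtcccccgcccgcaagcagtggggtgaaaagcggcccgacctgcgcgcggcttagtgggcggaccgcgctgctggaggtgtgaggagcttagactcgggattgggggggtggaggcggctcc
The element begins 65 bases before the start site in Hspa5, 98 in Pdia6 and 44 in Syvn1, and Hsp90b1 holds 2 copies, the first of them 212 bases before the start. Pdia6 was lower (96.5, 115 and 96.4 against 79.7, 76.6 and 78.8 CPM, log2 fold change -0.39 ± 0.11) and so was Syvn1 (48.4, 32.5 and 37.7 against 24.9, 28.3 and 28.9 CPM, log2 fold change -0.53 ± 0.16), while Hsp90b1, with the additional copy, was the least different of the 4.

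Of the lists with at least 8 tested members, that of the ribosome had the largest share of called genes. Of 78 tested cytosolic ribosomal protein genes 73 were higher in heat stress, none was lower, and 62 lay higher in every heat stress mouse, with log2 fold changes from 0.34 to 1.46 and a median of 0.67. Their summed level was 15522, 26101 and 19384 CPM in the control and 30515, 40004 and 27919.7 CPM in the heat stress libraries. Control replicate 2 stood closest to the heat stress mice, and heat stress replicate 2 stood highest. Rpl22l1, a paralogue of Rpl22 that is not in the list, on chr3:28805436-28807424, had 74.4, 160.0 and 104 CPM in the control and 211, 290.1 and 165 CPM in the heat stress libraries (log2 fold change 0.98 ± 0.28, DESeq2 adjusted p = 0.0168). Rpl7a, a protein of the large subunit, had 45.2, 62.7 and 56.5 against 91.4, 104 and 76.02 CPM (log2 fold change 0.72 ± 0.16, DESeq2 adjusted p = 0.00964), and Rps27a, which encodes a ribosomal protein fused to ubiquitin, had 226, 355 and 273 against 559, 628 and 397 CPM (log2 fold change 0.89 ± 0.21, DESeq2 adjusted p = 0.00639). In DESeq2, 60 of 75 members were higher at an adjusted p under 0.05. The largest value of the list was that of Rpl17, with 27.01, 43.5 and 67.3 against 118, 175 and 87.7 CPM (log2 fold change 1.46 ± 0.35). Ribosomal protein genes have many processed copies in the genome, so reads of single members are uncertain. Without heat stress replicate 2 the number of members that were higher was 44.

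Subunits of the respiratory chain encoded in the nucleus, which carry electrons and make ATP in mitochondria, were higher in 49 of 74 cases and lower in none, with a median log2 fold change of 0.46. Ndufb7, an accessory subunit of complex I, had 66.8, 80.5 and 69.3 CPM in the control and 98.98, 103 and 93.4 CPM in the heat stress libraries (log2 fold change 0.45 ± 0.11, DESeq2 adjusted p = 0.0314). Cox7c, a small subunit of complex IV, had 125, 203 and 159 against 252, 348 and 229 CPM (log2 fold change 0.77 ± 0.21). Not every member differed, and Atp5a1, the alpha subunit of ATP synthase, had 888, 898 and 833 against 945, 884 and 910.2 CPM (log2 fold change 0.065 ± 0.13, adjusted p = 0.799). Uqcrb of complex III stood at 0.68 on the log2 scale without and at -0.034 with the length and GC correction. Mitochondrial ribosomal proteins were higher in 29 of 78 cases (median 0.27), with Mrps18c at 20.02, 34.99 and 24.4 against 43.9, 53.7 and 40.04 CPM. Of 31 proteasome subunits, which degrade proteins tagged with ubiquitin, 14 were higher and none was lower (median 0.25, or 0.38 without control replicate 2). Translation factors were mixed, with 18 higher and 4 lower of 64, and Eif3e, a subunit of an initiation factor, had 82.1, 136 and 103 against 174, 229 and 155 CPM (log2 fold change 0.80 ± 0.20). Without heat stress replicate 2 the numbers higher were 21 for respiratory subunits, 11 for mitochondrial ribosomal proteins, 9 for the proteasome and 6 for translation factors. Without control replicate 1, control replicate 3 or heat stress replicate 1 they were 16, 18 or 19 for mitochondrial ribosomal proteins, 9 each time for the proteasome, and 7, 9 or 7 for translation factors. No translation factor was lower without control replicate 1, heat stress replicate 1 or heat stress replicate 2.

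Called genes differed in direction between short and long transcripts. When the 14562 tested genes with an annotated transcript were put in 5 equal classes by the length of the longest transcript, the shortest class, up to 1998 bases, had a median log2 fold change of 0.20 and the longest, from 5336 bases on, one of -0.16. In the shortest class 22.7% of genes were higher and 1.85% lower, and in the longest 3.26% were higher and 24.0% lower. The difference between the shortest and the longest class in each library, as medians of log2 deviations from the mean of the 6 libraries, was -0.26, -0.032 and -0.21 for the control mice. It was 0.17, 0.32 and 0.050 for the mice under heat stress. All 3 heat stress libraries lay above all 3 control libraries (difference 0.35, p = 0.1 by an exact two-sided permutation test, which cannot go lower with 3 mice a group). The median transcript of the cytosolic ribosomal list was 1076 bases long and that of the respiratory list 1141 bases. Once the curves of each library on length and GC content were taken out, 62 ribosomal proteins were higher and 0 lower (median 0.47), respiratory subunits 26 and 0 (median 0.18), mitochondrial ribosomal proteins 18 and 1 (median 0.14), proteasome subunits 5 and 1 (median 0.10) and translation factors 10 and 1. In that fit 970 genes (6.55%) were higher and 920 (6.21%) lower among all genes. The part of transcript length, or of RNA quality, in these results was not tested.

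**Figure D2:**
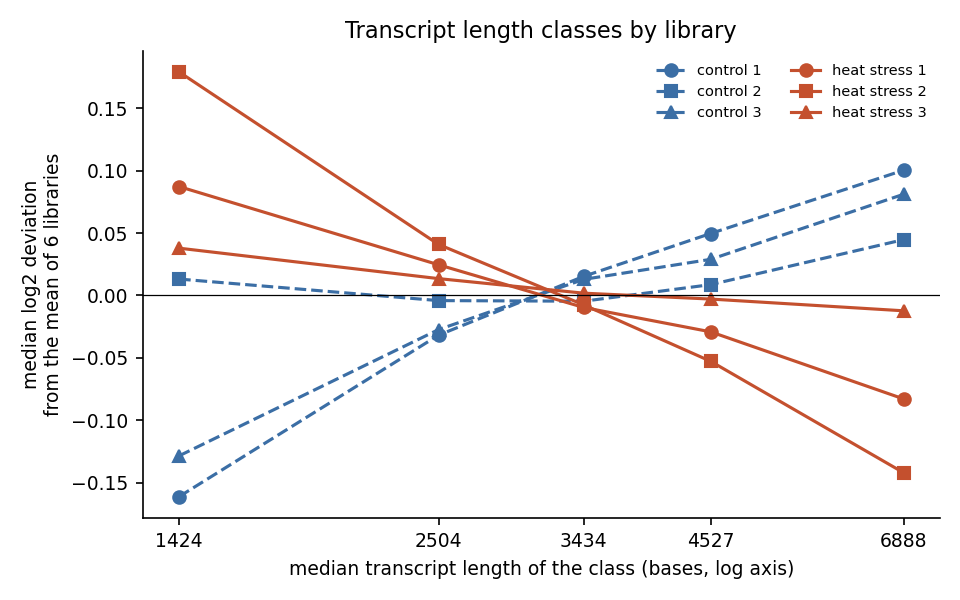
Median log2 deviation from the mean of the 6 libraries, for 5 classes of tested genes by transcript length, in each library. The horizontal axis is the median transcript length of a class in bases on a log scale. The heat stress libraries slope down from short to long transcripts, the control libraries slope up, and control replicate 2 and heat stress replicate 3 are the flattest of their groups.

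The high mobility group proteins, small proteins that bend or loosen chromatin, were higher in 4 of 8 cases (median 0.37). With the length and GC correction 3 were higher (median 0.19). Hmgn2 had 32.2, 36.04 and 35.05 CPM in the control and 52.5, 53.6 and 51.1 CPM in the heat stress libraries, with a spread within each group far below the difference (log2 fold change 0.61 ± 0.10, DESeq2 adjusted p = 0.00639, 0.64 after correction). Hmgn2 has many processed copies in the genome, which makes its count less certain. Hmgb3 (0.60), Hmgn1 (0.38) and Hmgb1 (0.36) were higher as well. Antioxidant genes and targets of Nrf2, a factor that answers oxidative stress, were higher in 6 and lower in 1 of 26 cases (median 0.14). With the length and GC correction 4 were higher and 0 lower (median 0.083). Gpx4, which repairs oxidized membrane lipids, had 203, 313 and 252 against 368, 457 and 348 CPM (log2 fold change 0.61 ± 0.18, DESeq2 adjusted p = 0.0293), and Prdx1, a peroxidase, had 158, 258 and 217 against 327, 379 and 264 CPM (log2 fold change 0.62 ± 0.20, DESeq2 adjusted p = 0.0426). Without heat stress replicate 2 this list had 1 higher and 2 lower, without heat stress replicate 1 3 and 1, without control replicate 1 3 and 0 and without control replicate 3 2 and 1.

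Most listed messages of brain endothelium were lower. Of 26 tested members of the list for endothelium and the blood-brain barrier 18 were lower, none was higher, and 17 lay lower in every heat stress mouse, with a median log2 fold change of -0.63. Their summed level was 942, 629 and 717 CPM in the control and 525, 616 and 470.2 CPM in the heat stress libraries. All 3 heat stress mice lay below all 3 control mice, and control replicate 1 stood highest. Flt1, a receptor for vascular endothelial growth factor, on chr5:147561604-147726011, had 94.6, 46.2 and 52.4 CPM in the control and 27.4, 34.3 and 31.3 CPM in the heat stress libraries (log2 fold change -1.06 ± 0.25, DESeq2 adjusted p = 0.00901). The other main receptor, Kdr, had 23.7, 9.69 and 13.6 CPM in the control and 7.39, 8.24 and 5.38 CPM in the heat stress libraries (log2 fold change -1.16 ± 0.32, DESeq2 adjusted p = 0.0219). Both separated the groups, with control replicate 1 far above its group. Sox18, a transcription factor of endothelial cells, had 7.54, 4.80 and 5.26 against 1.57, 2.51 and 2.83 CPM (log2 fold change -1.35 ± 0.29), and Tie1, a receptor tyrosine kinase of the same cells, had 16.1, 6.37 and 10.2 against 4.52, 5.37 and 3.87 CPM (log2 fold change -1.25 ± 0.32, DESeq2 adjusted p = 0.0196). Tek, which binds angiopoietins, had a log2 fold change of -0.94, and the surface proteins Eng, Pecam1 and Emcn had -0.96, -1.04 and -0.86.

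Genes of the barrier itself were among these. Slc2a1, the glucose carrier of the barrier, had 105, 64.2 and 89.2 CPM in the control and 53.9, 56.4 and 53.6 CPM in the heat stress libraries (log2 fold change -0.66 ± 0.17, DESeq2 adjusted p = 0.0243), and Slco1c1, which carries thyroid hormone, had 80.01, 62.2 and 70.3 against 47.3, 56.1 and 46.7 CPM (log2 fold change -0.50 ± 0.13, DESeq2 adjusted p = 0.0400). The tight junction genes Cldn5 (40.2, 26.6 and 27.2 against 21.2, 23.6 and 16.6 CPM, log2 fold change -0.62 ± 0.19, adjusted p = 0.172) and Tjp1 (109, 83.4 and 91.5 against 70.7, 75.2 and 65.4 CPM, log2 fold change -0.43 ± 0.13) were lower, and so were the efflux pump Abcb1a (-0.79) and the lipid carrier Mfsd2a (-0.46). Ocln, of the same junctions, lay lower in every heat stress mouse but was not called (-0.38, adjusted p = 0.251). After the length and GC correction 20 members were lower and none was higher (median -0.66), and 9 of 22 were lower with DESeq2 at an adjusted p under 0.05. The median without control replicate 1 was -0.43, with 15 lower.

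Genes of the vessel wall around the endothelium and of the extracellular matrix were lower in part. Of 14 tested markers of pericytes and smooth muscle 5 were lower and none higher (median -0.63). Abcc9, a subunit of the potassium channel of pericytes, had 15.4, 7.07 and 10.3 against 6.19, 5.73 and 6.04 CPM (log2 fold change -0.87 ± 0.27), and Notch3, a receptor of mural cells, had 12.8, 11.6 and 15.9 against 9.33, 7.70 and 8.41 CPM (log2 fold change -0.67 ± 0.18). Myh11, the myosin of smooth muscle, had 10.8, 2.36 and 3.32 against 2.03, 2.33 and 1.98 CPM (log2 fold change -1.39 ± 0.53, adjusted p = 0.206), where control replicate 1 held most of the difference. With that correction 2 mural markers were lower (median -0.36), and without control replicate 1, without heat stress replicate 1 and without heat stress replicate 3 the counts were 2, 2 and 3. Their median without control replicate 1 was -0.26. Of 19 genes of the basement membrane and extracellular matrix 9 were lower and none higher (median -0.52). Their summed level overlapped between the groups, with 939, 1145 and 1218 CPM in the control and 1161, 933 and 780 CPM in the heat stress libraries. Hspg2, which encodes perlecan, had 16.7, 7.85 and 10.8 against 3.60, 6.90 and 4.44 CPM (log2 fold change -1.25 ± 0.32, DESeq2 adjusted p = 0.0193), and the laminin chains Lamc1, Lamb2 and Lama5 were -0.81, -0.91 and -0.88. These are long transcripts, with a list median of 6450.0 bases, and 5 were lower and 1 higher after the correction (median -0.28). The number lower was 5 without control replicate 3 and 5 without heat stress replicate 1.

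The choroid plexus list had the lowest median of the lists with at least 8 tested members, -1.07, with 15 of 23 tested members lower and all 23 log2 fold changes below 0. This list was written with earlier results of these data known. It holds Kl, Aqp1, F5, Slc4a5 and Tmem72, which the study prints as changed in these brains, so its rank is partly fixed by the choice of members. Its summed level was 2335, 1917 and 3692 CPM in the control and 1131, 1698 and 579 CPM in the heat stress libraries. The groups did not overlap, and both spread widely, with control replicate 3 highest and heat stress replicate 3 lowest. Most of this sum came from Ttr and Enpp2, and 10 of the 23 tested members lay lower in every heat stress mouse. Aqp1, the water channel of this epithelium, had 10.01, 6.02 and 15.5 CPM in the control and 3.42, 5.20 and 2.27 CPM in the heat stress libraries (log2 fold change -1.53 ± 0.38, DESeq2 adjusted p = 0.0141). Enpp2, which makes lysophosphatidic acid, had 683, 554 and 993 CPM in the control and 402, 473 and 268 CPM in the heat stress libraries (log2 fold change -0.96 ± 0.26, DESeq2 adjusted p = 0.0117). Ttr, the carrier of thyroid hormone and retinol in cerebrospinal fluid, had 1448, 1159 and 2325 CPM in the control and 591, 1057 and 227 CPM in the heat stress libraries (log2 fold change -1.40 ± 0.50, adjusted p = 0.199). In all of these genes the nearest mice of the groups were control replicate 2 and heat stress replicate 2. F5, coagulation factor V, had 10.7, 7.24 and 15.9 against 3.60, 5.82 and 1.42 CPM (log2 fold change -1.63 ± 0.44, DESeq2 adjusted p = 0.0161). Without control replicate 3 the median was -0.63 with 7 lower, and without heat stress replicate 3 -0.76 with 10 lower. The correction left 15 lower (median -1.19). The motile cilia of the ependyma, which lines the same ventricles, showed 1 higher and 1 lower of 14 genes, with a median of -0.10. With the length and GC correction 0 were higher and 3 lower (median -0.26), and the median was -0.29 without control replicate 1, -0.015 without control replicate 2, -0.031 without control replicate 3 and -0.0064 without heat stress replicate 3.

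**Figure D3:**
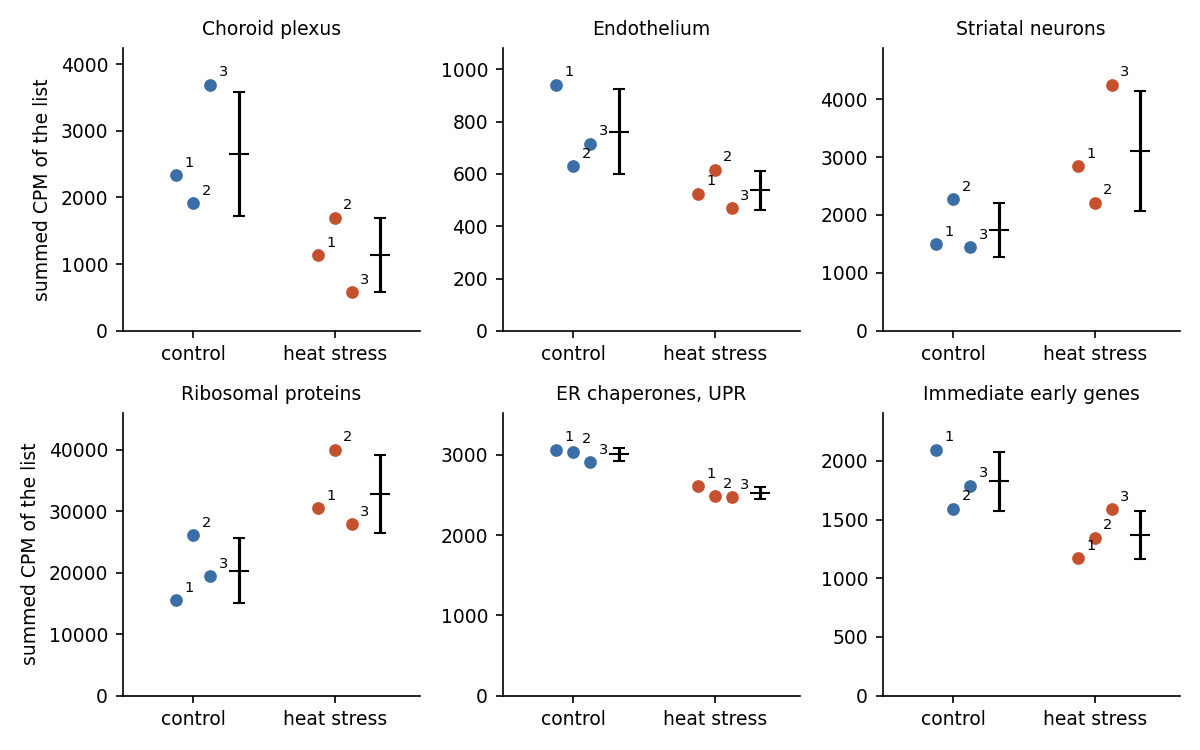
Summed CPM of 6 gene lists in each brain library, with replicate numbers beside the points and the mean ± SD (n = 3) in black. Choroid plexus, endothelial and endoplasmic reticulum chaperone sums lie lower in every heat stress mouse and ribosomal sums higher, while the striatal and immediate early sums come close or meet between control replicate 2 and a heat stress mouse.

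Regional markers of neurons differed in opposite directions. Medium spiny neurons, the projection cells of the striatum, had 19 of 26 markers higher and none lower, with a median of 0.99. Their summed level was 1501, 2277 and 1443 CPM in the control and 2848, 2211 and 4250.0 CPM in the heat stress libraries. Heat stress replicate 3 was highest, and control replicate 2 lay just above heat stress replicate 2. The striatal list was also written with earlier results known, and it holds Rarb, Adora2a, Gpr6 and Tac1, which the study prints as raised. Drd1, the dopamine receptor of the direct pathway, had 18.6, 29.7 and 16.4 CPM in the control and 37.8, 33.1 and 74.99 CPM in the heat stress libraries (log2 fold change 1.18 ± 0.33, DESeq2 adjusted p = 0.0162). Adora2a, the adenosine receptor of the indirect pathway, had 16.8, 27.4 and 18.1 CPM in the control and 48.8, 27.1 and 83.96 CPM in the heat stress libraries (log2 fold change 1.36 ± 0.38), with overlapping groups. Higher members came from both pathways, and Tac1, the substance P precursor of the direct pathway, had 22.9, 61.96 and 28.9 against 86.7, 69.1 and 107 CPM (log2 fold change 1.21 ± 0.35, DESeq2 adjusted p = 0.0128). Rxrg, a retinoid receptor, had 8.09, 17.2 and 6.39 against 25.3, 18.004 and 38.7 CPM (log2 fold change 1.38 ± 0.39, DESeq2 adjusted p = 0.0144), and Syndig1l, a synapse-associated gene, 12.4, 33.3 and 19.4 against 56.8, 39.6 and 82.9 CPM (log2 fold change 1.47 ± 0.37, DESeq2 adjusted p = 0.0610). Ido1, an enzyme of tryptophan breakdown that belongs to this list, had 0.823, 3.14 and 1.13 against 6.28, 5.55 and 10.7 CPM (log2 fold change 2.17 ± 0.47). The list of dopamine and cAMP signalling shares 8 members with the striatal list, so it partly repeats that result. In it 10 of 23 were higher, among them Pde1b (0.67) and Rgs9 (1.12), which are both striatal markers here. This number was 2 without control replicate 1, 4 without control replicate 3, 6 without heat stress replicate 1 and 6 without heat stress replicate 3. Of the striatal markers 8 were higher without control replicate 1 and 12 without heat stress replicate 3, where the median was 0.65, and 22 with the length and GC correction (median 0.96).

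Markers of the habenula, a small nucleus beside the third ventricle, were lower in 5 of 10 cases, with a median of -0.84. Chrna3 and Chrnb4, nicotinic receptor subunits that lie beside each other in the genome, had 2.81, 1.57 and 2.99 against 1.11, 0.717 and 0.661 CPM (log2 fold change -1.56 ± 0.38) and 1.44, 0.960 and 1.78 against 0.554, 0.179 and 0.189 CPM (log2 fold change -2.15 ± 0.52). Gpr151, a receptor of habenular neurons, had 5.07, 2.97 and 4.53 against 1.02, 0.627 and 1.89 CPM (log2 fold change -1.84 ± 0.40). These levels were low, and Chrnb4 lay below the floor in heat stress replicates 2 and 3. Markers of the thalamus were lower in 4 of 12 cases (median -0.79), but this rested on control replicate 3, in which Prkcd, a kinase of thalamic relay cells, had 219 CPM (27.4, 26.4 and 219 against 33.1, 16.8 and 19.6 CPM, log2 fold change -1.97 ± 0.96, adjusted p = 0.311). Without control replicate 3 the thalamic median was -0.019, with 1 lower and 1 higher, and the number lower was 1 without heat stress replicate 2 and 1 without heat stress replicate 3. The median without control replicate 2 was -1.23. With the length and GC correction 1 thalamic marker was lower and 0 higher (median -0.89). Cortical projection neurons (0 higher and 1 lower of 18), the hippocampus (0 and 2 of 14) and interneurons (1 and 0 of 16) held few called genes. The number lower was 3 for cortical neurons and 3 for interneurons without control replicate 3, and 5 for the hippocampus without heat stress replicate 3, where its median of -0.15 became -0.46. The median of the hippocampus was -0.038 without heat stress replicate 1 and -0.050 with the length and GC correction, and the number lower was 1 without that mouse, control replicate 3 or heat stress replicate 2. Hypothalamic markers were called in no case of 17, and their summed level ranged from 46.96 to 325 CPM among control mice and from 77.6 to 469 CPM among heat stress mice. Mice of 1 group thus differed in hypothalamic message by more than the groups did. Markers of striatum, choroid plexus, habenula, thalamus and hypothalamus all varied between libraries of the cut pieces, and the part of the region cut in the other results was not tested.

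**Figure D4:**
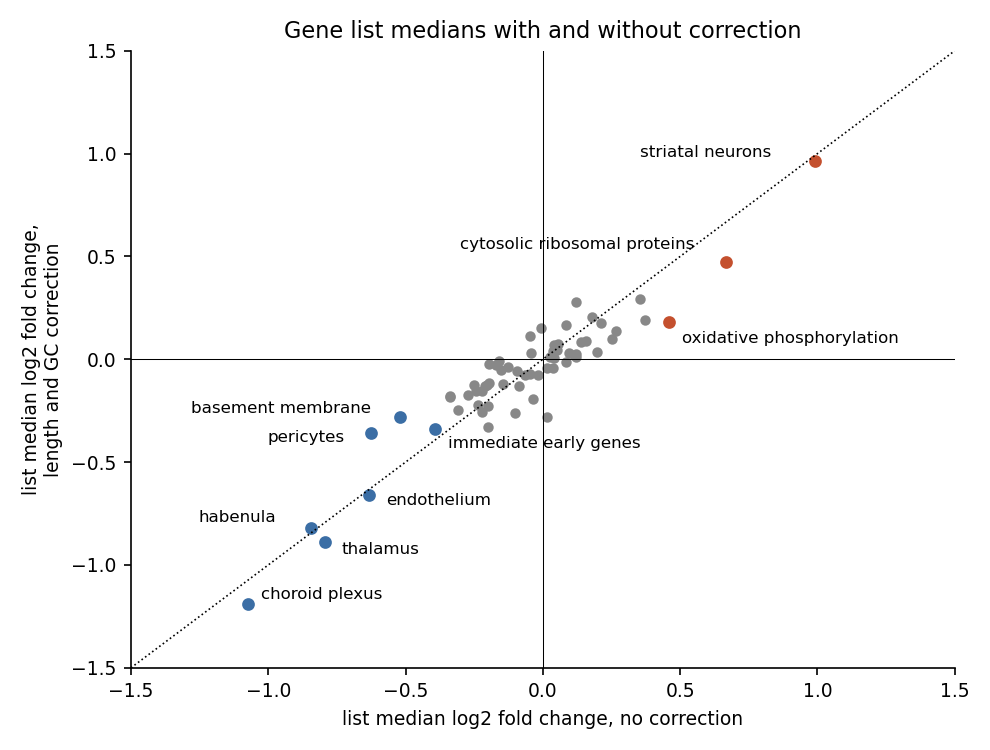
Median log2 fold change of each gene list with at least 8 tested members, without (horizontal) and with (vertical) the length and GC correction of every library, 1 point per list. The dotted line marks equal medians. Striatal, endothelial, habenular and choroid plexus medians stay near the line. Respiratory, ribosomal and pericyte medians, and that of basement membrane and extracellular matrix, lie closer to 0 after correction.

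Immediate early genes, which neurons switch on within minutes of firing, held more lower than higher members. Of 34 tested members 10 were lower and 1 was higher, with a median of -0.39. Npas4, a factor that follows calcium entry, had 46.1, 36.1 and 19.99 CPM in the control and 8.68, 15.3 and 13.5 CPM in the heat stress libraries (log2 fold change -1.45 ± 0.30, DESeq2 adjusted p = 0.00184). Egr2, a zinc finger factor, had 9.53, 7.94 and 9.23 CPM in the control and 2.77, 3.22 and 5.57 CPM in the heat stress libraries (log2 fold change -1.21 ± 0.27, DESeq2 adjusted p = 0.0144). Nptx2, a secreted protein that gathers AMPA receptors at synapses, had 58.4, 36.04 and 32.3 CPM in the control and 18.2, 19.3 and 28.1 CPM in the heat stress libraries (log2 fold change -0.95 ± 0.25, DESeq2 adjusted p = 0.0168). In all 3 the groups did not overlap. Arc, which drives removal of AMPA receptors, was the second smallest p of the table, with 281, 181 and 257 against 90.7, 114 and 119.8 CPM (DESeq2 adjusted p = 5.87e-06). Egr1 (-0.75), Egr3 (-0.77), Fos (-0.60), Trib1 (-0.65), Dusp6 (-0.42) and Ptgs2 (-0.70) completed the lower members, while Junb (-0.37, adjusted p = 0.256) was not called. Rgs2, the member that was higher (53.96, 90.2 and 66.5 against 99.8, 97.3 and 96.8 CPM, log2 fold change 0.48 ± 0.17, adjusted p = 0.189), is also a striatal signalling gene. After the length and GC correction 13 immediate early genes were lower and 1 higher, and the counts lower were 16 without control replicate 2 and 18 without heat stress replicate 3. The median without heat stress replicate 1 was -0.25.

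**Figure D5:**
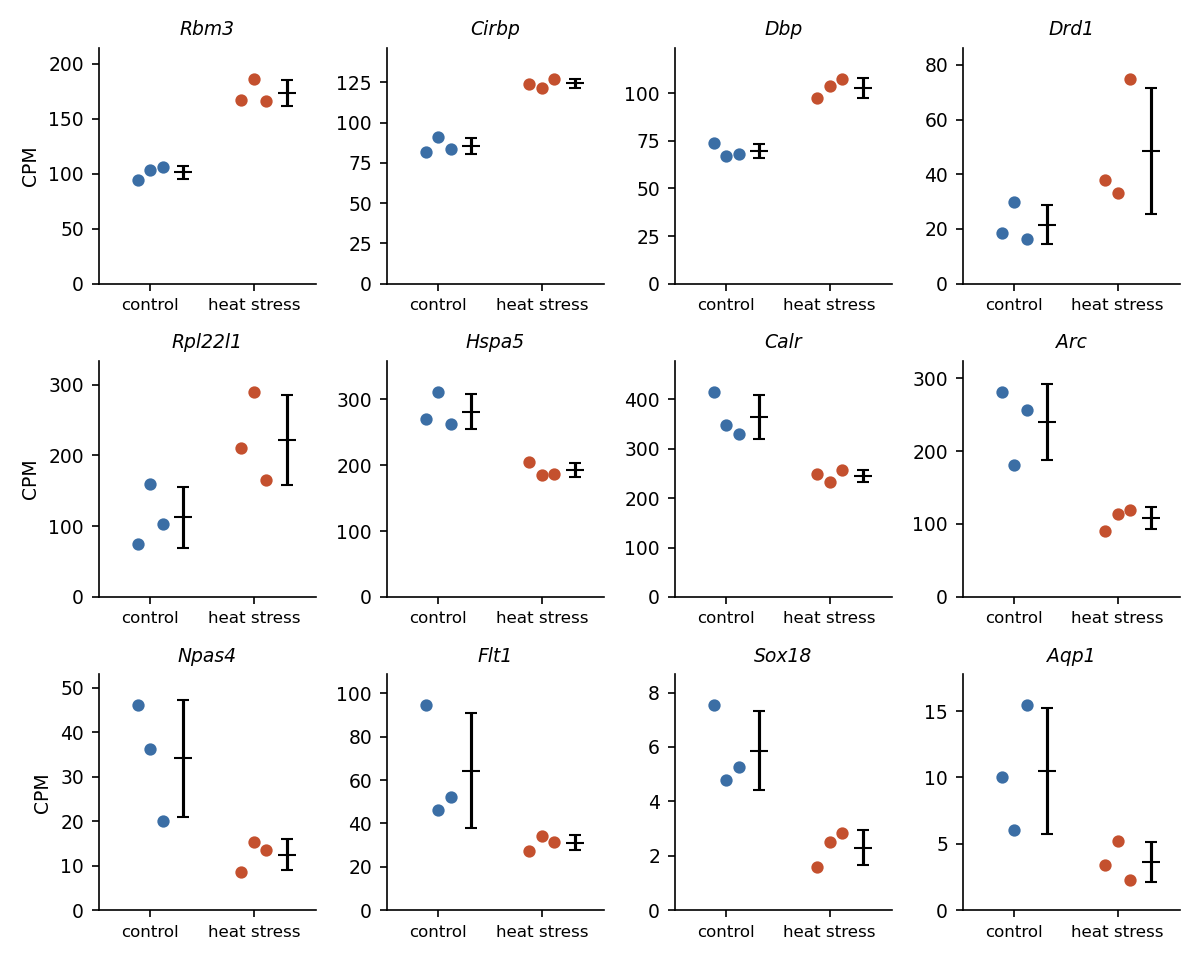
TMM-normalized CPM of 12 genes in each brain library, with the mean ± SD (n = 3) in black beside the points. The groups do not overlap in any of the 12 genes, and 5 of them lie higher and 7 lower in heat stress. The 12 genes are a chosen set, so this absence of overlap does not describe genes in general. Among all 14806 tested genes, the groups did not overlap in 1910 that lay higher and 1774 that lay lower in heat stress.

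Several lists of synaptic and channel genes held more lower than higher members. Potassium and HCN channels, which set the resting and firing properties of neurons, were lower in 12 of 31 cases and higher in none. Sodium and calcium channels were lower in 6 of 23, with Cacna1a at 191, 120.2 and 145 against 89.1, 88.6 and 116 CPM (log2 fold change -0.64 ± 0.18, DESeq2 adjusted p = 0.0338). Glutamate receptors were lower in 5 of 24, and Grin2b, an NMDA receptor subunit, had 457, 342 and 287 CPM in the control and 174, 156 and 270.3 CPM in the heat stress libraries (log2 fold change -0.86 ± 0.24, DESeq2 adjusted p = 0.0164). All 3 heat stress mice lay below control in these channel and receptor genes. Scaffold and active zone genes had 10 lower and 1 higher of 34, with Erc1 at 54.4, 43.2 and 37.96 against 26.8, 26.5 and 31.6 CPM (log2 fold change -0.68 ± 0.15, DESeq2 adjusted p = 0.0187). The median transcripts of these lists were 5407 bases for potassium channels, 8225 for sodium and calcium channels, 5494 for glutamate receptors and 7868 for scaffolds. After the length and GC correction the numbers lower were 3, 2, 1 and 2 in the same order. Without heat stress replicate 2 potassium channels had 4 lower and glutamate receptors 2, and without control replicate 1 they had 6 and 2. Without heat stress replicate 1 potassium channels had 6 lower and scaffolds 5.

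Lists of guidance and lipoprotein receptors held lower members and no higher ones. Semaphorins, plexins and neuropilins, which steer axons and vessels, were lower in 14 of 31 cases and higher in none (median -0.34). Plxna1 had 122, 91.3 and 93.2 CPM in the control and 62.7, 53.7 and 63.9 CPM in the heat stress libraries (log2 fold change -0.76 ± 0.14, DESeq2 adjusted p = 0.00370) and Sema7a 213, 119 and 160.4 against 101, 70.9 and 107 CPM (log2 fold change -0.82 ± 0.22, DESeq2 adjusted p = 0.0193). Of 12 members of the LDL receptor family, endocytic receptors for lipoproteins and other ligands, 8 were lower. Lrp5, a coreceptor for Wnt, had 11.2, 9.69 and 10.8 against 6.28, 5.73 and 5.10 CPM (log2 fold change -0.89 ± 0.17, DESeq2 adjusted p = 0.0168), and Sorl1, a sorting receptor for the amyloid precursor, had 329.8, 201 and 220.3 against 165, 128 and 178 CPM (log2 fold change -0.68 ± 0.20, DESeq2 adjusted p = 0.0340). With the length and GC correction 7 guidance genes (median -0.18) and 5 lipoprotein receptors (median -0.19) were lower. For the LDL receptor family the number was 5 without control replicate 1, 5 without heat stress replicate 1 and 5 without heat stress replicate 2.

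Circadian clock genes, a loop of factors that times daily rhythms, were called in both directions. Of 20 tested members 5 were higher and 3 lower. Dbp, an output factor of the clock, had 74.04, 67.3 and 67.99 CPM in the control and 97.4, 104 and 108 CPM in the heat stress libraries (log2 fold change 0.56 ± 0.10, DESeq2 adjusted p = 0.00639). Nr1d2, a repressor in the loop, had 129.9, 136 and 152 CPM in the control and 203, 197 and 182 CPM in the heat stress libraries (log2 fold change 0.48 ± 0.11, DESeq2 adjusted p = 0.0168). Arntl, the activator that this repressor acts on, had 37.98, 28.7 and 30.7 CPM in the control and 21.9, 22.1 and 24.6 CPM in the heat stress libraries (log2 fold change -0.51 ± 0.14). The groups of all 3 genes were apart, with Arntl opposite to the other two. Nfil3, which competes with Dbp for its sites, was lower (-0.45, adjusted p = 0.210), and Ciart (0.55, adjusted p = 0.221), Bhlhe41 (0.28) and Cry1 (0.28) were higher. The time of day at which the brains were taken is not given for either group in the sources used here. The number higher was 2 without control replicate 2, 2 without heat stress replicate 3, and 3 without control replicate 3 or heat stress replicate 1. The number lower was 1 without control replicate 1, control replicate 3, heat stress replicate 1 or heat stress replicate 2, and 5 without control replicate 2.

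Astrocyte markers were lower in 2 of 17 cases, Aldh1l1 (log2 fold change -0.50 ± 0.14) and Atp1b2 (log2 fold change -0.51 ± 0.15, DESeq2 adjusted p = 0.0295), and reactive astrocyte markers in 2 of 18, both close to the 10.0% of all genes. The reactive markers had 0 lower without control replicate 1 and 1 without heat stress replicate 1, and 1 lower and 3 higher without heat stress replicate 3. The astrocyte number was 4 without control replicate 1 and 5 without control replicate 3, and the median of -0.20 was -0.095 without control replicate 2, -0.13 without heat stress replicate 3 and -0.12 with the length and GC correction. Oligodendrocyte precursors, which divide and renew myelinating cells, were lower in 5 of 13 cases with a median of -0.27, or -0.17 with the length and GC correction. Olig2, their lineage factor, had 31.7, 35.9 and 33.5 CPM in the control and 25.5, 22.7 and 24.3 CPM in the heat stress libraries (log2 fold change -0.48 ± 0.11, DESeq2 adjusted p = 0.0426), and Tnr, a matrix protein, had 54.5, 43.5 and 37.96 against 26.8, 20.9 and 31.7 CPM (log2 fold change -0.78 ± 0.18, DESeq2 adjusted p = 0.0164). Mature oligodendrocyte genes held few called members, 2 higher and 3 lower of 20, shares near the 10.0% of all genes in each direction. The length and GC correction gave 1 higher and 1 lower, and DESeq2 gave 0 and 0 at an adjusted p under 0.05. Leaving out a mouse at a time gave between 0 and 3 higher and between 0 and 5 lower, where any of the 6 mice changed these small counts. Microglial markers were called in both directions, with 4 higher and 4 lower of 25, against 10.0% of all genes in each direction. The higher ones included Gpr34 (13.8, 23.04 and 16.5 against 32.5, 38.96 and 25.97 CPM, log2 fold change 0.87 ± 0.21, DESeq2 adjusted p = 0.0164) and Tyrobp (23.7, 34.1 and 29.1 against 39.4, 52.6 and 40.04 CPM, log2 fold change 0.61 ± 0.17, DESeq2 adjusted p = 0.0417), and the lower ones Csf1r, the growth factor receptor of these cells (110.2, 93.6 and 68.6 against 58.2, 65.7 and 60.5 CPM, log2 fold change -0.56 ± 0.16, DESeq2 adjusted p = 0.0475), and Itgam (log2 fold change -0.50 ± 0.16). Without control replicate 2, 10 microglial markers were higher, and without heat stress replicate 1 2 were lower. Their summed level was 928, 1102 and 836 CPM in the control and 932, 1082 and 984 CPM in the heat stress libraries, which overlapped between the groups.

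Inflammatory lists held called genes in both directions. Genes induced by interferon, the antiviral signal, were higher in 4 and lower in 0 of 29 cases, a share close to the 10.0% of all genes. Ifit1, which binds foreign RNA, had 4.04, 3.84 and 4.45 CPM in the control and 8.59, 12.9 and 5.48 CPM in the heat stress libraries (log2 fold change 1.13 ± 0.30, DESeq2 adjusted p = 0.0295). Ifi27l2a had 1.65, 1.83 and 2.02 CPM in the control and 3.51, 11.3 and 2.36 CPM in the heat stress libraries (log2 fold change 1.64 ± 0.54), most of it in heat stress replicate 2. Ifit3 (0.85, adjusted p = 0.179) and its near copy Ifit3b (0.71) were higher and may share reads. The number higher was 2 without heat stress replicate 2 and 2 without control replicate 1, and 8 without heat stress replicate 3. Of 33 cytokine and chemokine genes listed 19 were tested, with 2 higher and 6 lower. The number higher was 0 without heat stress replicate 2, 1 without control replicate 1 or heat stress replicate 1 and 0 with the length and GC correction, and DESeq2 gave 1 lower of 13. Cx3cl1, a neuronal chemokine read by microglia, had 713, 404 and 432 CPM in the control and 277, 263 and 382 CPM in the heat stress libraries (log2 fold change -0.75 ± 0.24, DESeq2 adjusted p = 0.0321). Others among the lower cytokine genes were Cxcl12 (log2 fold change -0.70 ± 0.23), which endothelium and neurons secrete, and the receptor genes Il6st (log2 fold change -0.40 ± 0.11) and Il17ra (log2 fold change -0.70 ± 0.20), and Il18 was higher (log2 fold change 0.48 ± 0.16). Complement and acute phase genes were lower in 4 of 13 cases and higher in none. That number was 0 without heat stress replicate 3, 1 without control replicate 1 or heat stress replicate 2 and 2 without control replicate 3, 0 members lay lower in every heat stress mouse, and DESeq2 gave 0 lower of 8. In this list Clu, which encodes the secreted chaperone clusterin, had 894, 860.3 and 698 CPM in the control and 588, 699.7 and 641 CPM in the heat stress libraries (log2 fold change -0.35 ± 0.15, adjusted p = 0.237). Serpina3n, an acute phase inhibitor of proteases, had 24.3, 18.5 and 22.1 against 19.5, 14.8 and 14.7 CPM (log2 fold change -0.41 ± 0.16, adjusted p = 0.218). Called genes were few in antigen presentation (0 higher and 1 lower of 17), disease-associated microglia (1 and 0 of 14) and border macrophages (0 and 0 of 6). Of 27 markers of T and NK cells 3 had enough counts to be tested, and the whole list summed to between 9.51 and 12.002 CPM. Neutrophil and monocyte markers summed to 8.71, 15.9 and 11.01 CPM in the control and 13.6, 44.7 and 11.9 CPM in the heat stress libraries, so heat stress replicate 2 stood apart, as it did in meningeal fibroblast markers, which summed to 391, 313 and 317 CPM in the control and 206, 624 and 196 CPM in the heat stress libraries. Of 17 meningeal markers 0 were called with all mice (median -0.042). Without heat stress replicate 2, 11 were lower and 0 higher (median -0.67). The part of neutrophils, monocytes and meningeal fibroblasts in the results of heat stress replicate 2 was not tested.

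Most of the remaining genes with the largest differences belonged to none of the lists. Among those higher, Nts, a member of the list of neuropeptides that encodes neurotensin (3 higher and 1 lower of 20), had 1.78, 13.2 and 6.88 against 20.9, 20.3 and 14.1 CPM (log2 fold change 1.36 ± 0.54, adjusted p = 0.225), and Ccne2, a cyclin of the start of DNA replication, had 3.50, 5.85 and 5.18 against 10.53, 9.40 and 9.07 CPM (log2 fold change 1.00 ± 0.22, DESeq2 adjusted p = 0.0173). Pfdn4, a prefoldin subunit, had 17.3, 32.1 and 23.7 against 50.9, 61.3 and 33.6 CPM (log2 fold change 1.00 ± 0.26, DESeq2 adjusted p = 0.0162), Dach1, a transcriptional corepressor, 7.61, 14.5 and 7.93 against 18.004, 19.3 and 22.005 CPM (log2 fold change 0.99 ± 0.24, DESeq2 adjusted p = 0.0164), and Stk26, a kinase, 6.86, 8.38 and 7.93 against 13.8, 12.6 and 19.2 CPM (log2 fold change 0.98 ± 0.20, DESeq2 adjusted p = 0.00934). All 5 separated the groups, by a wide margin in Stk26 and narrowly in Nts and Pfdn4. Among those lower, Mical2, a monooxygenase that oxidizes actin, had 393, 216 and 245 against 126, 129 and 179 CPM (log2 fold change -0.98 ± 0.23, DESeq2 adjusted p = 0.00787), and Slc2a12, a sugar carrier, had 10.4, 8.55 and 13.3 against 5.17, 6.99 and 4.16 CPM (log2 fold change -0.98 ± 0.25, DESeq2 adjusted p = 0.0271). Rnaset2b, a lysosomal ribonuclease with a near-identical copy in the genome, had 11.7, 27.6 and 20.3 against 8.22, 8.42 and 9.35 CPM (log2 fold change -1.19 ± 0.28, DESeq2 adjusted p = 0.00934). Lct, lactase, had 4.73, 8.90 and 7.45 against 1.85, 3.31 and 4.44 CPM (log2 fold change -1.13 ± 0.34, adjusted p = 0.171), Serinc2 8.78, 4.10 and 9.96 against 3.42, 2.87 and 3.97 CPM (log2 fold change -1.16 ± 0.33), and Drc7, of the dynein regulatory complex of cilia, 7.27, 6.28 and 11.6 against 4.71, 4.12 and 2.93 CPM (log2 fold change -1.09 ± 0.29).

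The smallest p-values after those of Rbm3, Arc and Hmgn2 belonged to Ubr4, Soga1 and Mast4. Ubr4, an ubiquitin ligase, had 235, 175 and 191 CPM in the control and 125, 105 and 115 CPM in the heat stress libraries (log2 fold change -0.80 ± 0.14, DESeq2 adjusted p = 0.000857). Soga1 had 53.3, 61.3 and 59.3 CPM in the control and 39.6, 36.2 and 38.4 CPM in the heat stress libraries (log2 fold change -0.61 ± 0.11, DESeq2 adjusted p = 0.00639). Mast4, a kinase associated with microtubules, had 76.03, 57.6 and 75.4 CPM in the control and 42.9, 30.4 and 39.4 CPM in the heat stress libraries (log2 fold change -0.89 ± 0.16, DESeq2 adjusted p = 0.00195). No heat stress mouse reached a control mouse in these genes, and after the length and GC correction their log2 fold changes were -0.38, -0.31 and -0.58.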

How the data were processed

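Brain messenger RNA of 6 mice, 3 per group, was sequenced in pairs of reads from stranded libraries. The authors deposited raw read counts per gene symbol, and their methods describe the counting in 2 ways, with HISAT2 2.2.1 and featureCounts of Subread 2.0.1 on mm10 after Trimmomatic 0.39, or with Tophat2 and HTSeq. The use of strand and the annotation release are not given in the sources used here. Deposited tables of the authors' own comparisons hold log2 fold changes, p-values and mean counts from DESeq2 1.22.2 and were not used. Every per-library column could be mapped to a sample.

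Heat stress was compared with control by edgeR's quasi-likelihood test (edgeR 4.0.16, R 4.3.3) on the counts of the 6 brain libraries, with TMM normalization, robust estimates, the filterByExpr filter (minimum count 10, minimum total 15) and Benjamini-Hochberg adjustment over 14806 genes. CPM were computed from those counts. The standard error of a log2 fold change was derived from its F statistic. Totals lay between 10552686 and 14597197 counts. Gene positions and the length and GC content of the longest transcript were read from GENCODE M21 (mm10). Length and GC were corrected per library with lowess curves of span 0.3 on log2 CPM with a prior count of 2. Class scores used a pseudocount of 0.5. The procedure was also run on simulated counts with 200 changed genes, and the outcome of that run is not reported here. Replicate numbers did not pair the samples.

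The 79 gene lists, the comparison and the tests were chosen with earlier results of these data known. Lists are described by counts and medians, without a test of the list. Named genes were the 12 largest and 12 smallest log2 fold changes among genes with an unadjusted p under 0.05, groups that did not overlap and a mean of at least 5 CPM, leaving out genes the study prints and predicted genes, plus the 6 smallest p-values and, in each list described, its members with the smallest p and its defining members. Further list members were added after their values were seen. A few results are not reported here. Alternatives were RLE and upper-quartile normalization, DESeq2 1.42.0, no filter or a minimum count of 50, all 12 libraries in a single fit, the replicate number as a block, the length and GC correction, and each mouse left out in turn.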

Additional observations from a re-analysis of the deposited data

How the results depend on the processing

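At an adjusted p under 0.05 with a log2 fold change past 1, DESeq2 gave 12 genes higher and 17 lower, where edgeR gave 0 in both directions. At an unadjusted p under 0.05, the length and GC correction gave 970 higher and 920 lower, the same with the replicate block 934 and 812, and the fit of all 12 libraries 763 and 630, and leaving out a mouse gave between 729 and 2042 higher and between 886 and 1985 lower. With a log2 fold change past 1 as well, no filter gave 164 higher and 133 lower, a minimum count of 50 gave 26 and 30, the length and GC correction gave 55 higher without and 55 with the block, and leaving out a mouse gave between 62 and 219 higher and between 81 and 161 lower. The replicate number as a block gave 1457 higher and 1395 lower, and same-numbered mice correlated at -0.29, 0.19 and -0.20, so the numbers were not taken as pairs. At an adjusted p under 0.05 with a log2 fold change past 1, the block gave 0 higher and 0 lower, as the main fit did.

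The median of respiratory subunits was 0.18 with the length and GC correction, also with the block. That of endoplasmic reticulum chaperones was -0.26 in both of these fits and lay between -0.28 and -0.16 with a mouse left out. The shortest transcript class had medians of 0.045 and, with the block, 0.042, and the longest of -0.050 and -0.051, since the correction removes trends on length by construction. Uqcrb turned to -0.034 under the correction and -0.033 with the block. All other named genes kept their direction under every alternative run. The cause of the other differences was not tested. Genes near the floor of 0.206 to 0.284 CPM, such as habenular receptors, are limited by depth.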
